A study of Mus musculus with 9 samples.

Results

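The genes described here encode the cohesin complex, its loaders, releasers and protectors, the meiotic chromosome axis and synaptonemal complex, the crossover and strand exchange factors that work on that axis, and the condensins. They were chosen as a fixed list of 45 mouse symbols by their known roles; the rule uses no measured value, although results of these data were known when it was written. Of these 45 genes, 43 had a row among the 22526 genes of the deposited table, and 36 reached at least 1 FPKM (fragments scaled to transcript length and library size) in at least 3 libraries, as 9168 genes of the table did. Those 36 were tested. Stag3, Pds5a, Syce1, Msh5, Mlh3, Dmc1 and Spo11 fell below that limit and are given by level alone. Rec8, which encodes the meiotic kleisin of cohesin, and Syce3 were not analysed here.

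The libraries came from mouse oocytes of the outbred ICR strain at metaphase II, the stage at which the ovulated egg waits for the sperm. There were 3 groups of 3 libraries each. The NMN group received nicotinamide mononucleotide, a precursor of NAD; the series title places it among oocytes of aged mothers, but no label gives its age. The aged and young groups carry no treatment label, and ages in weeks, NMN dose and route, and the number of oocytes and females behind each library are not given in the sources used here. No genetic change is named for any group, and no label says that libraries of a group came from separate females, so each p-value measures the spread between libraries, part of which may be technical. The question named by the title is whether NMN reverses the decline of oocytes with maternal age.

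As background, cohesin is a ring of a pair of SMC proteins, a kleisin and a STAG subunit that holds sister chromatids together. In mammalian oocytes the rings are loaded before birth and must last until ovulation, and loss of cohesin from chromosomes with maternal age is a known source of wrong chromosome numbers in eggs. Shugoshin protects cohesin at the centromeres while the chromosome arms separate. At metaphase II the arms have already separated, and the cohesin left at the centromeres lasts until separase cuts it after fertilization. The axis, synapsis and recombination proteins act in fetal prophase, long before the stage sampled here, so their messages in an egg are stored or residual RNA. RNA levels say nothing of how much protein remains on the chromosomes.

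The low FPKM values fell on steps of whole reads, which placed the depth of the libraries between 16.3 and 19.3 M reads. At that depth 3 reads on a 2 kb transcript correspond to 0.0779 to 0.0921 FPKM, and this limit covers counting error only. Aged replicate 2 stood apart from the other 8 libraries on the first principal component of all tested genes, which held 41.0% of the variance: it lay at 56.8, and the others lay between -28.6 and 22.8. All 16 oocyte markers looked for had rows, with summed levels of 12127 to 13959 FPKM in NMN, 13279 to 14514 in aged and 10204 to 12636 in young libraries. Of 19 cumulus and granulosa markers, 16 had rows. Their sum was 88.2 to 91.2 FPKM in NMN, 79.9 to 85.9 in aged and 74.0 to 90.7 in young libraries. Most of it came from Areg and Cyp19a1, which were both lowest in aged replicate 2. Areg was at 53.1 FPKM there and 65.2 to 84.8 elsewhere, and Cyp19a1 at 3.03 against 3.05 to 6.21 FPKM. The other 14 markers summed to 23.8 FPKM in aged replicate 2 and to 2.33 to 5.31 FPKM in the other 8 libraries. Ptx3, Inha, Fst, Tnfaip6, Foxl2 and Hsd17b1 were above 0 in aged replicate 2 alone, Ptx3 at 6.37 FPKM, and were listed at 0 in the other 8 libraries. The part of cumulus RNA in the results below was not tested; values without aged replicate 2 stand beside several results.

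Levels spanned a wide range. Averaged over the 9 libraries, 21 of the 43 genes stood at 10 FPKM or more, 15 between 1 and 10, and 7 below 1. Pttg1, the message for securin, which inhibits separase, was the highest with a mean of 1189 FPKM. Smc4, the SMC subunit of both condensins, followed with 270.2 FPKM, and its range over libraries did not overlap that of Pttg1 or of any other member. Syce2, Tex12, Wapl, Esco2, Cdca5, Smc3, Ncapg and Esco1 came next with means of 50.7 to 67.3 FPKM, and these neighbours did not differ beyond their spread over libraries. The 7 genes below 1 FPKM held both recombination genes (Msh5, Mlh3, Dmc1 and Spo11) and others (Stag3, Pds5a and Syce1). Spo11, whose product makes the DNA breaks of meiosis, was the lowest and was above 0 only in aged replicate 2.

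**Figure D1:**
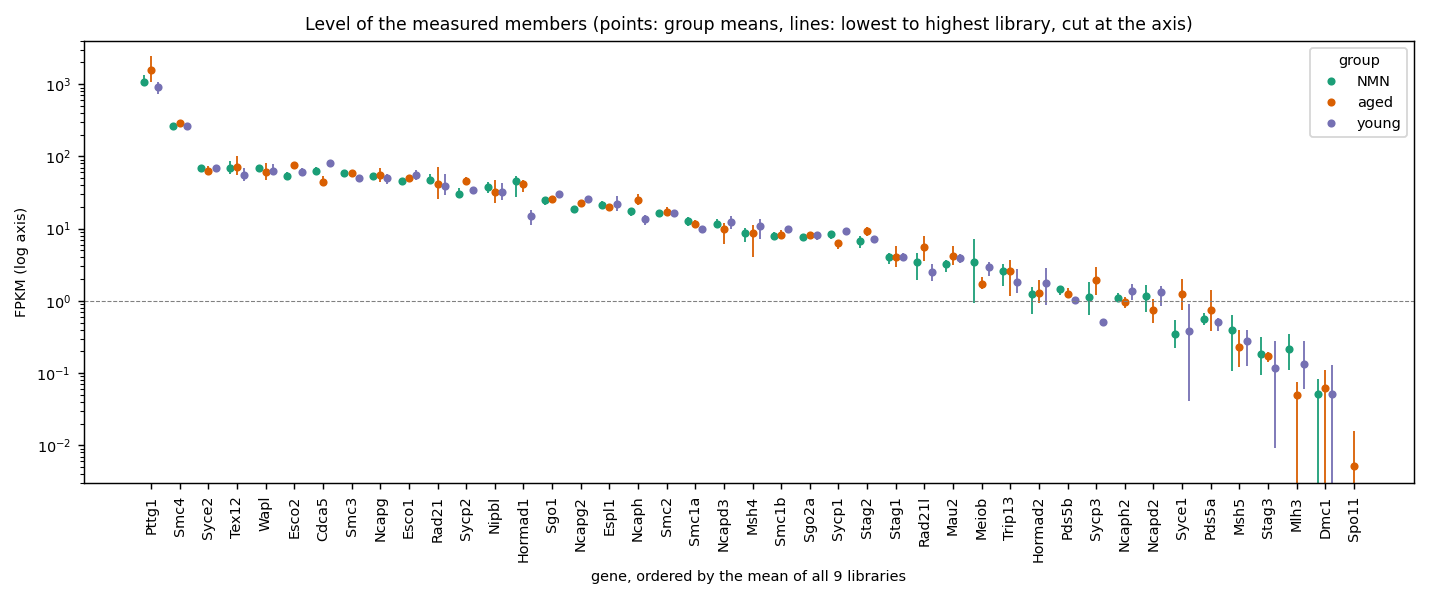
Level of the 43 measured genes in FPKM on a log axis, ordered by the mean of all 9 libraries, with group means as points and lines from the lowest to the highest library of NMN, aged and young oocytes. The dashed line marks 1 FPKM; Pttg1 stands at the top, Smc4 follows, and Dmc1 and Spo11 are the lowest.

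Between aged and young oocytes, 2 of the 36 tested genes passed an adjusted p of 0.05 in limma, a linear model with moderated variance fitted on log2(FPKM + 1) over all tested genes. Hormad1 was higher and Cdca5 was lower in aged oocytes; in bulk RNA, fewer cells with a message and less message per cell cannot be told apart. The same test called 199 of the 9168 genes, or 2.17%. That count was 22, 26, 35, 43 and 108 when young replicate 2, young replicate 3, aged replicate 3, young replicate 1 and NMN replicate 3 were left out in turn. At an unadjusted p under 0.05 there were 7 of 36 genes (19.4%), against 18.3% of all tested genes. In 13 of the 36 genes (36.1%) the 3 aged and the 3 young libraries did not overlap in FPKM as deposited, against 23.8% of all tested genes. Overlap here and below was judged before scaling between libraries, whereas the limma tests used scaled values. Aged replicate 2 had the largest scaling factor, so scaling can move genes into or out of these lists. Overlap after scaling was not counted, for the members or for all tested genes. Esco2, Hormad1, Ncaph, Rad21l, Smc1a, Smc3, Smc4, Sycp2 and Sycp3 lay higher in aged libraries (9 genes, background 12.6%), and Cdca5, Meiob, Sgo1 and Sycp1 lay lower (4 genes, background 11.2%). The median log2 change was -0.06 over the 36 genes and -0.04 over all tested genes, and 16 of the 36 changes were above 0.

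Between NMN and aged oocytes no member was called by limma, where 20 genes or 0.218% of the table were; 5 members had an unadjusted p under 0.05, or 13.9% against 11.4% of all tested genes. Between NMN and young oocytes no member was called either, where 7 genes or 0.0764% of the table were. That table count was 0 with replicate numbers as a block, an alternative to the unpaired main fit. Of the members, 2 had an unadjusted p under 0.05, against 8.12% of all tested genes. Before scaling, the NMN and aged libraries did not overlap for 7 members (15.6% of all tested genes): Cdca5 and Sycp1 lay higher in NMN (background 9.09%), and Esco2, Ncapg2, Ncaph, Smc4 and Sycp2 lay lower (background 6.51%). Likewise before scaling, the NMN and young libraries did not overlap for 9 members (16.6% of all tested genes): Hormad1, Pds5b, Smc1a, Smc3 and Sycp3 lay higher in NMN (background 9.58%), and Cdca5, Ncapg2, Sgo1 and Smc1b lay lower (background 6.99%). The median changes were 0.02 for NMN against aged (all tested genes 0.03) and -0.06 for NMN against young (all tested genes 0.01). The aged libraries enter both the aged against young and the NMN against aged contrast, so a gene whose aged libraries lie far out moves in both, in opposite directions.

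**Figure D2:**
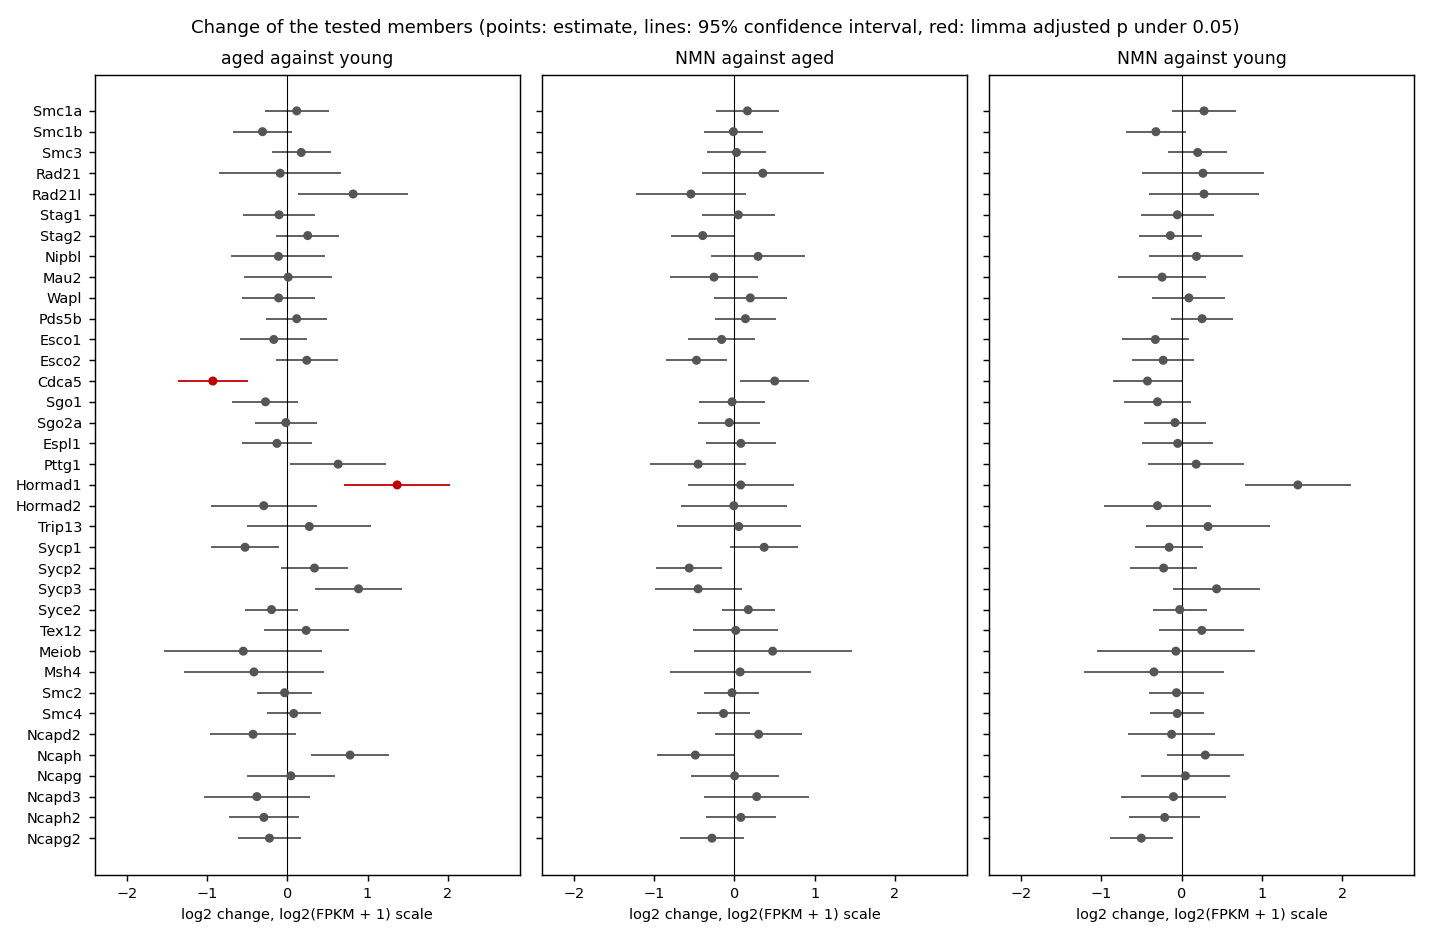
Log2 change of each of the 36 tested genes for each of the 3 pairs of groups, named above the panels, with 95% confidence intervals of the limma fit; genes are ordered by role, from cohesin at the top to the condensins at the bottom. The 2 genes with an adjusted p under 0.05, Cdca5 below 0 and Hormad1 above 0, are in the aged against young panel and are drawn in red.

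Among the core cohesin subunits no gene was called in any comparison. Smc3, the SMC subunit common to mitotic and meiotic cohesin, was at 64.5, 60.1 and 54.9 FPKM in NMN, 59.9, 56.9 and 60.5 FPKM in aged and 50.8, 52.6 and 47.2 FPKM in young libraries. Every NMN and every aged library lay above every young one, by a small margin and before scaling. The limma change in aged against young oocytes was 0.17 on the log2 scale with an adjusted p of 0.614. Smc1a, its partner in mitotic cohesin, ordered the groups alike at 12.9 ± 1.78 FPKM in NMN, 11.5 ± 1.39 in aged and 10.04 ± 0.765 in young oocytes (SD, n = 3 each).

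Smc1b, the meiosis-specific SMC1 whose loss in mice leads to early loss of cohesion in ageing oocytes, ran the other way in level. It was at 8.86, 7.27 and 7.91 FPKM in NMN, 7.91, 9.48 and 7.17 FPKM in aged and 9.73, 10.9 and 9.17 FPKM in young libraries. The NMN libraries all lay below the young ones, and the aged and young libraries overlapped. The aged against young change was -0.31 ± 0.17 (SE) on the log2 scale, with a 95% interval of -0.68 to 0.06 and an adjusted limma p of 0.359.

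Because the ratio of related genes within a library needs no scaling between libraries, the SMC1 pair was also read as a share. Smc1b made up 40.2, 33.4 and 41.9% of the summed FPKM of Smc1a and Smc1b in NMN libraries, 42.3, 42.0 and 40.5% in aged libraries and 48.2, 54.3 and 46.6% in young libraries. All 6 NMN and aged libraries were below all 3 young ones. The difference was -8.09 percentage points in aged against young oocytes and -11.2 points in NMN against young oocytes, each with p = 0.1 in a 2-sided exact permutation test, the smallest that 3 against 3 allows, and 0.3 after Benjamini-Hochberg adjustment over 12 such tests. NMN differed from aged oocytes by -3.07 points (exact p = 0.2, adjusted 0.48).

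Rad21 encodes the mitotic kleisin and Rad21l a kleisin of meiotic prophase. Rad21l was at 1.97, 3.68 and 4.59 FPKM in NMN, 3.58, 5.07 and 7.85 FPKM in aged and 1.87, 3.22 and 2.35 FPKM in young libraries. All aged libraries exceeded all young ones, and the NMN libraries overlapped both groups. The aged mean was 2.22 times the young one, with a log2 change of 0.82 ± 0.31 and an adjusted limma p of 0.196 (unadjusted 0.0234). In NMN against aged oocytes the change was -0.54 with an adjusted p of 0.537. Rad21 varied more within groups than between them, at 57.3, 43.2 and 41.0 FPKM in NMN, 26.7, 70.3 and 25.9 FPKM in aged and 56.3, 29.2 and 31.8 FPKM in young libraries. Its highest libraries were aged replicate 2, NMN replicate 1 and young replicate 1. The Rad21l share of the summed kleisin FPKM was wide, 7.08 ± 3.44% in NMN, 13.9 ± 8.48% in aged and 6.69 ± 3.37% in young oocytes (SD, n = 3 each), with exact permutation p of 0.3 for aged against young.

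Of the STAG subunits, Stag2 was at 6.70, 5.40 and 7.93 FPKM in NMN, 7.79, 10.6 and 9.06 FPKM in aged and 7.87, 7.07 and 6.55 FPKM in young libraries. The aged libraries overlapped both other groups at their low end. The NMN against aged change was -0.40 ± 0.18 on the log2 scale (unadjusted p = 0.0479, limma adjusted p = 0.437). Stag1 stayed between 2.98 and 5.68 FPKM over all 9 libraries. Stag3, the meiotic STAG subunit, was untested at 0.00906 to 0.316 FPKM, and its share of the STAG sum was 1.61 ± 0.745% in NMN, 1.30 ± 0.259% in aged and 1.05 ± 1.31% in young oocytes (SD, n = 3 each).

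**Figure D3:**
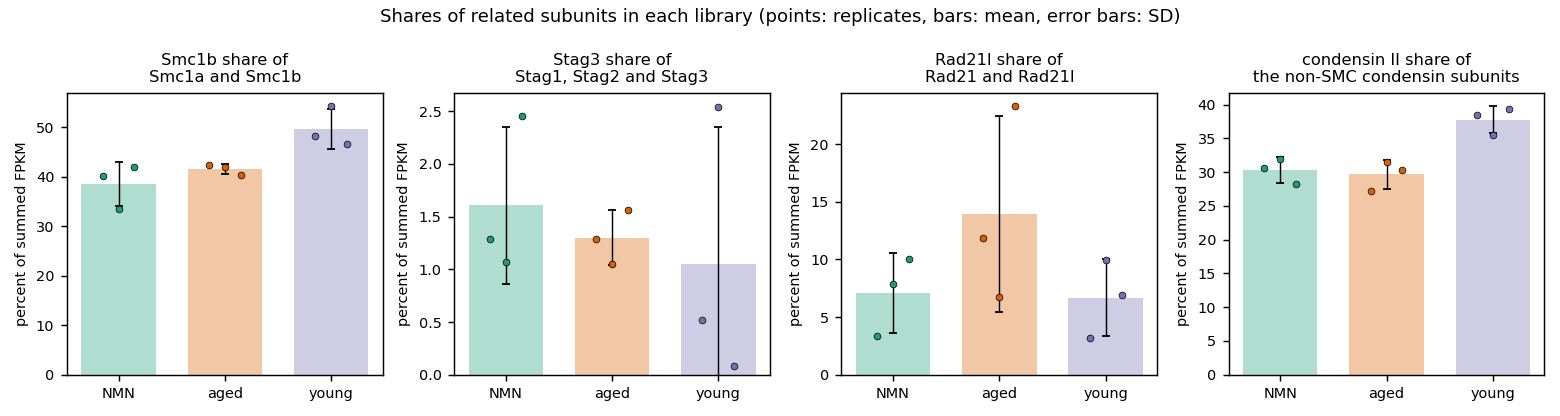
Shares of related subunits in percent of their summed FPKM, for Smc1b, Stag3, Rad21l and the condensin II subunits, with each library as a point, the group mean as a bar and the SD as an error bar, drawn down to 0 at most. The Smc1b and condensin II shares of all NMN and aged libraries lie below those of all young libraries.

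Cdca5 (ENSMUSG00000024791), which encodes sororin, the protein that locks replicated cohesin against release, was the member lower in aged oocytes by the test. It was at 53.8, 39.8 and 40.8 FPKM in aged libraries, against 81.7, 84.0 and 80.4 FPKM in young libraries. The groups were far apart, and the young libraries lay within a few FPKM of each other. The aged mean of 44.8 ± 7.81 FPKM was 0.546 times the young mean of 82.0 ± 1.82 FPKM (SD, n = 3 each), with a log2 change of -0.93 ± 0.20 (SE), a 95% interval of -1.36 to -0.49 and an adjusted limma p of 0.0425. Without aged replicate 2 the change was -0.78 with an adjusted p of 0.0544; the call was also lost, with adjusted p between 0.0557 and 0.162, when any other library except aged replicate 1 was left out. It was lost as well without the filter on low values (adjusted p of 0.132) and with only the aged and young libraries in the fit (0.0853).

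In NMN oocytes Cdca5 was at 59.9, 57.9 and 71.5 FPKM, between the other groups and overlapping neither. The NMN mean was 63.1 ± 7.37 FPKM (SD, n = 3). The change was 0.50 ± 0.20 on the log2 scale against aged oocytes (unadjusted p = 0.0274, limma adjusted p = 0.383) and -0.43 ± 0.20 against young oocytes (limma adjusted p = 0.613). Without aged replicate 2 the NMN against aged change was 0.36 with an adjusted p of 0.375. Neither difference passed the test across all genes.

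The promoter of Cdca5 is shown because it carries a motif of cell cycle genes next to its start. The CHR motif, TTTGAA, is bound by the MuvB complexes that time mitotic genes. It was searched on both strands in the 250 bases before the start given by RefSeq for GRCm38.p6, a build other than the mm9 named in the submitters' notes. The window lies at chr19:6084847-6085096 on the plus strand, and capitals mark the motif.
Cdca5: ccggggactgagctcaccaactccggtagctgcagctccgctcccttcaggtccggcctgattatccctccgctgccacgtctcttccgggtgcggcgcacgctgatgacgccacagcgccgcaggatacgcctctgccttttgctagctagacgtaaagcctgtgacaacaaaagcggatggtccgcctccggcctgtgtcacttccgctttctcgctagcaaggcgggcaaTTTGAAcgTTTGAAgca
The 2 copies begin 17 and 9 bases before the start and do not overlap. CHR letters were present in 11 of the 37 members with a RefSeq promoter (29.7%). The share was 18.3% of all genes with a promoter and 13.3% of those tested here. The 11 members were Cdca5, Espl1, Msh4, Ncapd2, Ncapd3, Ncapg, Ncapg2, Pds5b, Rad21l, Smc2 and Tex12. A match of this length is a description of the sequence and no evidence of binding.

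The acetyltransferases that establish cohesion, Esco1 and Esco2, both modify Smc3. Esco2 was at 52.5, 48.0 and 60.7 FPKM in NMN, 77.6, 76.1 and 71.9 FPKM in aged and 55.2, 70.0 and 58.4 FPKM in young libraries. Before scaling, the aged libraries were the highest and overlapped neither other group. The change was -0.47 ± 0.17 in NMN against aged oocytes (unadjusted p = 0.0208, limma adjusted p = 0.362) and 0.24 in aged against young oocytes (adjusted p = 0.496). Without aged replicate 2 the NMN against aged change was -0.53 with an adjusted p of 0.215. Esco1 was at 39.7, 48.9 and 47.5 FPKM in NMN, 48.8, 53.3 and 50.9 FPKM in aged and 47.0, 64.5 and 55.2 FPKM in young libraries, with overlap between all groups and an adjusted p of 0.675 in aged against young oocytes.

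Wapl, which opens the ring and releases cohesin from chromatin, was at 77.0, 66.95 and 61.8 FPKM in NMN, 56.9, 80.3 and 46.9 FPKM in aged and 77.4, 55.4 and 55.7 FPKM in young libraries. All groups overlapped, with an adjusted limma p of 0.823 in aged against young oocytes. Nipbl, the loader, had the same library order at its top as Rad21 and Wapl: 47.0 FPKM in aged replicate 2, 44.0 in NMN replicate 1 and 43.5 in young replicate 1, and 22.5 to 37.8 elsewhere. Its partner Mau2 was at 2.52 to 5.81 FPKM. The Wapl partners Pds5b and Pds5a were low, at 0.912 to 1.57 FPKM and, untested, 0.381 to 1.40 FPKM.

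The shared order of Nipbl, Rad21 and Wapl was examined after their values were seen. Aged replicate 2, NMN replicate 1 and young replicate 1 were the 3 highest libraries for 5 of the 36 tested members (Nipbl, Rad21, Syce2, Tex12 and Wapl), which is 13.9%, against 834 or 9.1% of all tested genes. Each of these libraries belongs to another group, so the order adds to the spread inside every group. Aged replicate 2 was the highest library for 10 of 36 members (27.8%), against 27.1% of all tested genes.

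Among the protectors of centromeric cohesin, Sgo1 was at 20.97, 27.2 and 26.4 FPKM in NMN, 25.6, 24.7 and 26.0 FPKM in aged and 27.7, 30.6 and 30.9 FPKM in young libraries. Its young libraries all lay above the NMN and the aged ones, without a call by limma. Sgo2a, the shugoshin that protects meiotic cohesin in mouse oocytes, averaged 7.78 ± 0.288 FPKM in NMN, 8.25 ± 0.324 in aged and 8.07 ± 1.01 in young oocytes (SD, n = 3 each). In GENCODE M21 its exons overlap those of Kctd18 on the other strand over 2455 bases. Kctd18 reached at most 2.04 FPKM, and counting without strand cannot separate the pair.

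Separase, encoded by Espl1, was at 17.5 to 28.0 FPKM over the 9 libraries, with overlapping groups. Pttg1 was at 1328, 954 and 946 FPKM in NMN, 1188, 2451 and 1079 FPKM in aged and 1089, 937 and 730.3 FPKM in young libraries. Aged replicate 2 held more than any other library by a wide margin, and the groups overlapped. The aged against young change was 0.63 ± 0.27 (unadjusted p = 0.0405, limma adjusted p = 0.247), and it was 0.33 with an adjusted p of 0.448 without aged replicate 2. In NMN against aged oocytes it was -0.45 with an adjusted p of 0.558, and -0.15 without that library.

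**Figure D4:**
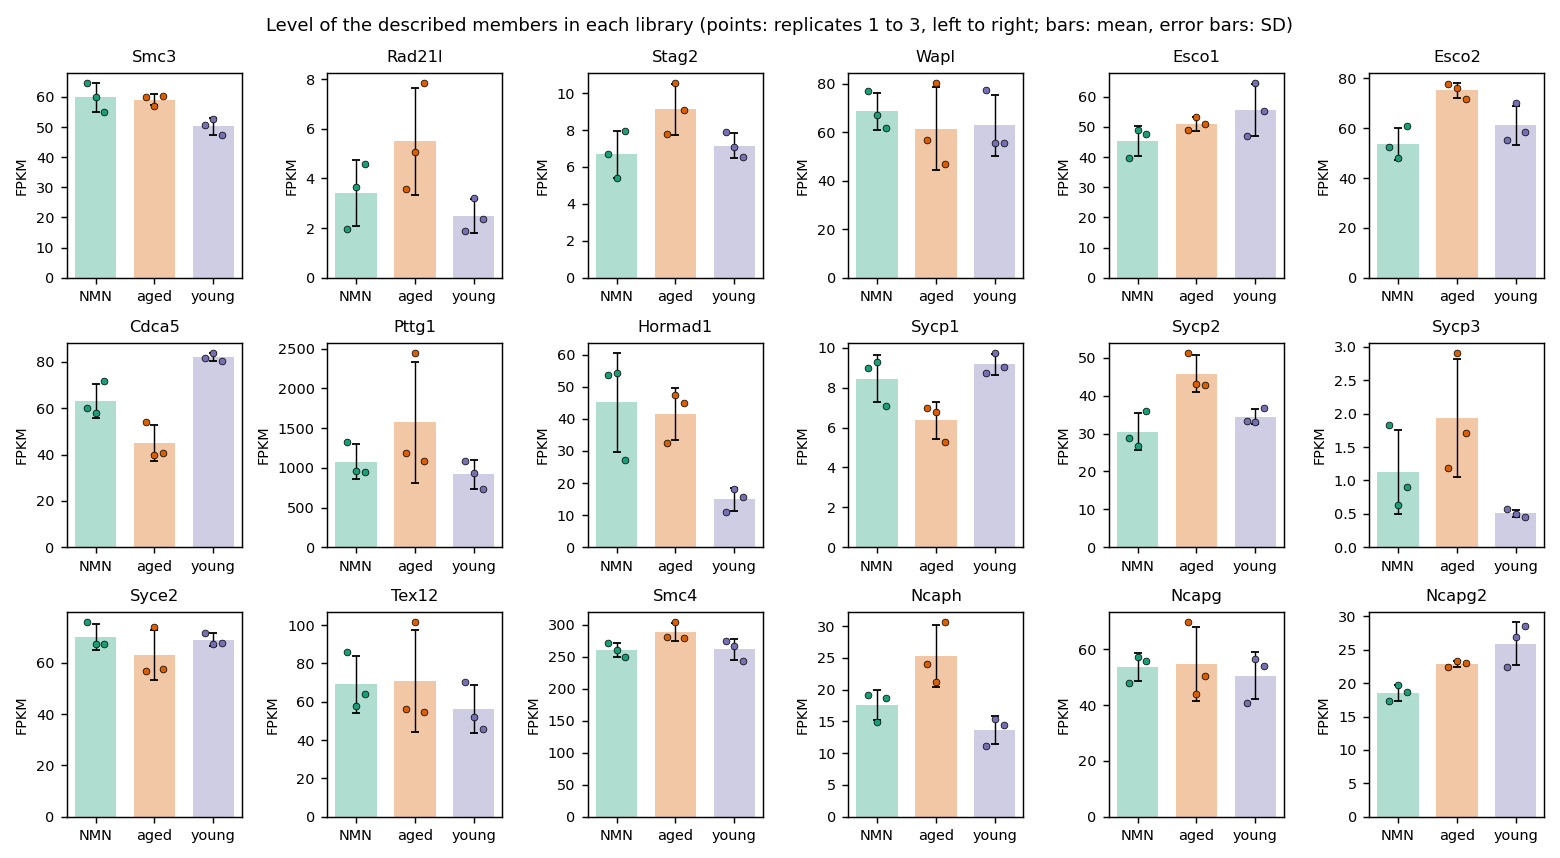
FPKM of the 18 genes described with every value, in NMN, aged and young oocytes, with the 3 libraries of a group as points in replicate order, the mean as a bar and the SD as an error bar. Hormad1 stands higher in the NMN and aged libraries than in the young ones, Cdca5 is lowest in aged libraries, and Pttg1 shows the single high library, aged replicate 2.

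Hormad1 (ENSMUSG00000028109) encodes a HORMA domain protein of the unsynapsed axis that promotes DNA breaks and pairing in meiotic prophase. It was at 32.4, 47.4 and 44.997 FPKM in aged libraries, against 11.1, 18.2 and 15.5 FPKM in young libraries. No aged library came near a young one. The aged mean of 41.6 ± 8.08 FPKM was 2.78 times the young mean of 14.9 ± 3.57 FPKM (SD, n = 3 each). The log2 change was 1.37 ± 0.30 (SE) with a 95% interval of 0.71 to 2.03 and an adjusted limma p of 0.0451. Without aged replicate 2 it was 1.33 with an adjusted p of 0.0739, and the call was lost when any library except NMN replicate 2 or NMN replicate 3 was left out, with adjusted p between 0.0568 and 0.150. The adjusted p was 0.155 without the filter on low values and 0.0519 with a pseudocount of 0.1.

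In NMN oocytes Hormad1 was at 53.8, 54.4 and 27.1 FPKM. Replicate 3 lay below all aged libraries, of which the lowest was at 32.4 FPKM, and the other NMN replicates lay above all of them. All 3 NMN libraries exceeded all young ones. The NMN mean of 45.1 ± 15.6 FPKM (SD, n = 3) was 3.02 times the young mean, with a log2 change of 1.45 ± 0.30, a 95% interval of 0.78 to 2.11, an unadjusted p of 0.000621 and an adjusted limma p of 0.196. Leaving out NMN replicate 3 gave a change of 1.78 and an adjusted p of 0.0453. The other 8 omissions of a library gave adjusted p of 0.112 to 0.677, without a call. Against aged oocytes the change in NMN oocytes was 0.08 ± 0.30, with an interval of -0.58 to 0.74 and an adjusted p of 0.954. A difference between NMN and aged oocytes was not detectable, and the interval covers changes in both directions.

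The promoter windows of Hormad1 and Sycp3 are shown together because both axis genes hold the same pair of short motifs. The E-box CACGTG is read by basic helix-loop-helix factors and TTCCCGC by E2F factors, and both kinds of site are known in promoters of germline genes. Capitals mark matches on either strand, so that an E2F match may be printed as its reverse complement, in the 250 bases before the RefSeq start, at chr3:95559427-95559676 for Hormad1 and chr10:88459337-88459586 for Sycp3, both on the plus strand of GRCm38.p6.
Hormad1: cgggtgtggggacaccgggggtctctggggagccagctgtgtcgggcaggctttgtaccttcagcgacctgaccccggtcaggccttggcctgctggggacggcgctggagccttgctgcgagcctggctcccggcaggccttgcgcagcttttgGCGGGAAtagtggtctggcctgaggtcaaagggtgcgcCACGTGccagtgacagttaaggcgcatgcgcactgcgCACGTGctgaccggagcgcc
Sycp3: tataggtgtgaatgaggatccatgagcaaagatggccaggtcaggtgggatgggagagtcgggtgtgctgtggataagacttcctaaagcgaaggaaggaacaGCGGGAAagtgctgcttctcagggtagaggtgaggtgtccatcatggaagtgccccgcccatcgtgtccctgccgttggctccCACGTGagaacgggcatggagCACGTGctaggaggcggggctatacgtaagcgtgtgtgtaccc
Both windows hold 2 E-boxes near the start and 1 E2F match further upstream, with no overlap between matches. An E-box was present in 9 of 37 members (24.3%), namely Espl1, Hormad1, Mau2, Sgo1, Stag3, Syce2, Sycp1, Sycp3 and Tex12, against 6.86% of all genes with a promoter and 10.1% of those tested here. The E2F letters were also present in 9 members (24.3%), against 4.38% of all genes and 8.83% of those tested. Cdca5 held neither. Genes with both motifs did not share a direction: in aged against young oocytes Hormad1 and Sycp3 had changes above 0, Syce2 had -0.20 (limma adjusted p = 0.528) and Tex12 had 0.23 (adjusted p = 0.642), with all but Hormad1 uncalled. The Tex12 change was 0.01 without aged replicate 2, with an adjusted p of 0.98.

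Sycp3, the axial element protein with which chromosome cores are stained, was near the lower limit of the test at 1.83, 0.635 and 0.909 FPKM in NMN, 1.19, 2.92 and 1.71 FPKM in aged and 0.568, 0.500 and 0.452 FPKM in young libraries. Every NMN and aged library lay above every young one, and the highest was again aged replicate 2. Sycp3 reached 1 FPKM only in the aged libraries and NMN replicate 1, so the filter admitted it through the group where it was high. Its ratio and test are therefore not independent of the filter, and the counts above include it. The aged mean was 3.82 times the young mean, with a log2 change of 0.89 ± 0.24 (a scale on which a pseudocount of 1 shrinks the change of so low a gene) and an adjusted limma p of 0.0977. Without aged replicate 2 the change was 0.70 with an adjusted p of 0.177. In NMN against aged oocytes it was -0.45 with an adjusted p of 0.517. The Sycp3 exons overlap those of Chpt1 on the other strand over 660 bases, and Chpt1 was at most 0.573 FPKM, a level not far from that of Sycp3 in young libraries.

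Sycp2, the partner of Sycp3 in the lateral element, was at 28.8, 26.7 and 36.0 FPKM in NMN, 51.4, 43.1 and 42.7 FPKM in aged and 33.4, 33.1 and 36.8 FPKM in young libraries. The aged libraries were the highest in both contrasts, without overlap. The change was -0.56 ± 0.19 in NMN against aged oocytes (unadjusted p = 0.0122, limma adjusted p = 0.299) and 0.34 ± 0.19 in aged against young oocytes (adjusted p = 0.366). Without aged replicate 2 these were -0.67 and 0.44, with adjusted p of 0.168 and 0.252. It had the smallest unadjusted p of the members in NMN against aged oocytes.

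Sycp1, the transverse filament that zips the homologues, had the opposite order, at 8.99, 9.27 and 7.09 FPKM in NMN, 6.96, 6.81 and 5.30 FPKM in aged and 8.73, 9.77 and 9.04 FPKM in young libraries. The aged libraries were the lowest in both contrasts, again without overlap. The change was -0.53 ± 0.19 in aged against young oocytes (unadjusted p = 0.0203, limma adjusted p = 0.184) and 0.37 ± 0.19 in NMN against aged oocytes (adjusted p = 0.503). The genome holds a processed pseudogene copy of this gene, Sycp1-ps1, whose reads the deposited values may not separate.

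The central element genes were among the most abundant members. Syce2 was at 75.8, 67.1 and 67.3 FPKM in NMN, 56.9, 74.1 and 57.7 FPKM in aged and 71.7, 67.3 and 67.6 FPKM in young libraries, with overlapping groups. Tex12, which assembles with Syce2 into fibres, was at 85.8, 57.6 and 63.9 FPKM in NMN, 56.1, 102 and 54.7 FPKM in aged and 70.2, 52.2 and 45.9 FPKM in young libraries. In both genes aged replicate 2 was well above the other aged libraries, and all groups overlapped for Tex12. Syce1, untested, was at 0.220 to 0.539 FPKM in NMN, 0.751 to 2.02 FPKM in aged and 0.0410 to 0.906 FPKM in young libraries. Hormad2, the Hormad1 paralogue, was at 0.664 to 2.84 FPKM and Trip13, the ATPase that strips HORMA proteins from the axis, at 1.19 to 3.72 FPKM, neither with a call.

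The recombination members were mostly below the limit of the test. Msh4, which stabilises crossover intermediates, was at 6.47, 10.2 and 9.23 FPKM in NMN, 11.4, 4.07 and 10.9 FPKM in aged and 7.30, 13.5 and 12.3 FPKM in young libraries, lowest where Rad21 and Nipbl were highest. Its partner Msh5 was at 0.107 to 0.646 FPKM. Meiob, which binds single-stranded DNA in meiosis, was at 0.943, 7.13 and 2.34 FPKM in NMN libraries, 2.14, 1.62 and 1.45 FPKM in aged libraries and 2.18, 3.11 and 3.45 FPKM in young libraries, with the aged ones all below the young ones. The resolvase gene Mlh3 was above 0 in 8 of 9 libraries at up to 0.344 FPKM, and the strand exchange gene Dmc1 in 6 of 9 at up to 0.131 FPKM. Both stayed below the limit of the test.

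Condensins compact the chromosomes that cohesin holds together, and both forms share Smc2 and Smc4. Smc4 was at 271, 261 and 249 FPKM in NMN, 281, 305 and 279 FPKM in aged and 275, 267 and 244 FPKM in young libraries. In FPKM as deposited the aged libraries were the highest without overlap, and their mean was 1.10 times the young one. After scaling between libraries the log2 change was 0.08 in aged against young oocytes (limma adjusted p = 0.818). Smc2 averaged 16.5 ± 1.28 FPKM in NMN, 17.0 ± 2.58 in aged and 16.7 ± 0.280 in young oocytes (SD, n = 3 each).

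Ncaph, the kleisin of condensin I, was at 19.1, 14.9 and 18.6 FPKM in NMN, 24.1, 21.2 and 30.6 FPKM in aged and 11.2, 15.4 and 14.4 FPKM in young libraries. The aged libraries lay above both other groups without overlap. The aged mean was 1.85 times the young mean, with a change of 0.78 ± 0.22 (unadjusted p = 0.00468, limma adjusted p = 0.101). Leaving out aged replicate 2 gave 0.96 with an adjusted p of 0.0410. The other 8 omissions of a library gave adjusted p of 0.119 to 0.261, without a call. In NMN against aged oocytes the change was -0.49 ± 0.22 (unadjusted p = 0.0483, limma adjusted p = 0.437). It was -0.67 with an adjusted p of 0.193 without aged replicate 2. Ncapg, a HEAT repeat subunit of condensin I, was at 47.8, 57.2 and 56.0 FPKM in NMN, 69.8, 44.1 and 50.5 FPKM in aged and 40.9, 56.6 and 54.1 FPKM in young libraries, with full overlap. Its exons overlap Lcorl on the other strand over 944 bases, where Lcorl was at most 0.768 FPKM.

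On the condensin II side, Ncapg2 was at 17.3, 19.7 and 18.7 FPKM in NMN, 22.3, 23.3 and 23.0 FPKM in aged and 22.3, 26.8 and 28.6 FPKM in young libraries. All NMN libraries lay below all others. The change was -0.50 ± 0.18 in NMN against young oocytes (unadjusted p = 0.0174, limma adjusted p = 0.477) and -0.22 in aged against young oocytes (adjusted p = 0.547). Ncapd3 was at 6.20 to 15.1 FPKM, Ncapd2 of condensin I at 0.498 to 1.68 FPKM and Ncaph2 of condensin II at 0.790 to 1.70 FPKM.

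Taken as a share of the summed FPKM of the 6 non-SMC subunits, condensin II made up 30.6, 32.0 and 28.2% in NMN libraries, 27.3, 31.4 and 30.3% in aged libraries and 38.5, 35.5 and 39.3% in young libraries. As with the Smc1b share, all NMN and aged libraries were below all young ones. The difference was -8.13 percentage points in aged against young oocytes and -7.52 points in NMN against young oocytes, each at the smallest possible exact permutation p of 0.1 (adjusted 0.3 over the 12 tests). NMN differed from aged oocytes by 0.610 points (exact p = 0.6). Neither share can pass a threshold of 0.05 with 3 libraries a group.

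Genes that work beside the members were counted by list. Among shugoshin partners and the chromosomal passenger complex, 16 of 18 genes were tested and none was called by limma in any comparison. In aged against young oocytes 3 had an unadjusted p under 0.05 above and 1 below 0, together 4 of the 16 tested, against 18.3% of all tested genes. Aurkb, the kinase of the passenger complex in mitosis, averaged 15.5 ± 5.78 FPKM in aged and 5.72 ± 0.271 FPKM in young oocytes (limma adjusted p = 0.146). The kinase Haspin, which marks cohesin-rich centromeres for that complex, averaged 71.8 ± 20.9 FPKM in aged and 112 ± 10.2 FPKM in young oocytes (limma adjusted p = 0.175). Aurkc averaged 5.14 ± 2.28 FPKM in aged and 2.27 ± 0.261 FPKM in young oocytes (limma adjusted p = 0.211). Birc5 averaged 115 ± 51.5 and 65.0 ± 4.36 FPKM (limma adjusted p = 0.202), with 174 FPKM in aged replicate 2. In NMN against aged oocytes the Aurkb change was -1.05 (unadjusted p = 0.0191, limma adjusted p = 0.351).

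In the list of genes that time separase, 17 of 21 were tested and none was called in any comparison. In aged against young oocytes 3 had an unadjusted p under 0.05 above and 1 below 0, together 23.5% of the list against 18.3% of all tested genes. The cyclin gene Ccnb2 averaged 18.5 ± 1.09 FPKM in aged and 11.7 ± 2.09 FPKM in young oocytes (limma adjusted p = 0.148). Of the SMC5/6 genes 7 of 8 were tested, with no call. At an unadjusted limma p under 0.05 there was only Nsmce2 in aged against young oocytes, or 14.3% of the tested genes of this list. Among other cohesin and chromosome structure factors 14 of 18 were tested and none was called. The share with an unadjusted limma p under 0.05 in aged against young oocytes was again 14.3%, below that of all tested genes. Tipin, of the fork protection complex that helps set up cohesion, averaged 29.9 ± 6.23 FPKM in aged and 15.9 ± 3.17 FPKM in young oocytes, a change of 0.82 ± 0.21 with an adjusted limma p of 0.0743. Its partner Timeless averaged 38.6 ± 14.5 FPKM in aged and 57.2 ± 4.98 FPKM in young oocytes (limma adjusted p = 0.251).

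The remaining list held other recombination, synapsis and telomere attachment genes, of which 26 of 43 were tested. In aged against young oocytes 1 was called, or 3.85% against 2.17% of all tested genes. At an unadjusted limma p under 0.05 the share was 7.69%, against 18.3% of all tested genes. Those genes were Ccnb1ip1, the called one, and Rpa1, which went the other way. Rpa1 averaged 12.1 ± 1.84 FPKM in aged and 18.3 ± 2.77 FPKM in young oocytes (limma adjusted p = 0.1575). Its NMN against aged change was 0.56 (limma adjusted p = 0.362). Ccnb1ip1, which encodes the crossover factor HEI10, was at 8.46, 9.90 and 9.28 FPKM in aged libraries, against 3.65, 4.16 and 2.82 FPKM in young libraries. The groups were well separated, with a log2 change of 1.13 ± 0.21 and an adjusted limma p of 0.0272. The adjusted p was 0.0366 without aged replicate 2; it was 0.0554 to 0.135 when aged replicate 1, aged replicate 3 or any young library was left out, and 0.0873 without the filter on low values. In NMN libraries it was at 7.81, 5.43 and 4.65 FPKM, between the other groups, with changes of -0.57 against aged oocytes (adjusted p = 0.362) and 0.56 against young oocytes (adjusted p = 0.495).

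Messages stored in oocytes often carry a cytoplasmic polyadenylation element near their end, and libraries primed on poly(A) read the tail as well as the message. Its letters, TTTTAT or TTTTAAT on the sense strand, were found in the last 100 bases of the 3′ UTR of 8 of 33 tested members with a UTR of that length (24.2%), against 22.4% of all tested genes; the 8 were Esco2, Ncapd2, Ncapd3, Ncapg, Pds5b, Sgo2a, Smc2 and Sycp3. The Esco2 and Sycp3 sites are shown, as 30 bases of GENCODE M21 transcripts on GRCm38, because these genes differ in level by far. Capitals mark the element and, in Esco2, the polyadenylation signal ATTAAA that overlaps it.
Esco2: tctctttaagtgTTTTATTAAAagttttac
Sycp3: tttgtttgtttgTTTTAATagttgttctct
They lie at chr14:65819043-65819072 on the minus strand and chr10:88473173-88473202 on the plus strand. The called genes Hormad1 and Cdca5 had no such letters in this window.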

How the data were processed

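Libraries were made from oocyte RNA by Smart-seq2 with oligo(dT) priming, per the labels' protocols. The deposited table is named as raw counts but holds FPKM values: they are not whole and sum to 300369 to 329359 per library. Bowtie2 2.2.5, RSEM and the build mm9 are named per the submitters' processing notes; the annotation is not given in the sources used here. IDs were matched to symbols for 22487 of 22526 genes. Depth was read from the steps of low values (2659 genes over 1500 nt, below 20 reads), which came out whole within 0.02 reads for 96.2 to 97.7% of values.

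The deposited FPKM were divided by scaling factors from a trimmed mean of log ratios (trims of 30% of ratios and 5% of levels at each end, unweighted), put on a log2 scale with a pseudocount of 1, and fitted for all 9 libraries as 3 group means in limma 3.58.1 (R 4.3.3) with variance trend and robust moderation. Fold changes on this scale understate those of low genes. Genes needed 1 FPKM in 3 libraries, and p-values were adjusted by Benjamini-Hochberg over all 9168 genes. On simulated data with 200 changed genes, the test found 45 and 94% of log2 changes of 1 and 2 in the aged and young groups, 46 and 88% between NMN and aged, and 40 and 91% between NMN and young. The 200 changed genes were drawn from those with a mean above 2 on the log2 scale, with independent normal noise and no scaling step. These rates therefore do not cover the lowest members. Ratios of means are called times. The sign ± is SD for levels and SE for log2 changes. Shares were compared with exact permutation tests in SciPy 1.17.1; the kleisin share was planned with Rec8, which is not analysed here, and used Rad21l alone.

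The members and lists were chosen with earlier results of these data known. Every value is given for members called, with an unadjusted p under 0.05 or with a group mean of 50 FPKM. Same-numbered NMN and young libraries deviated together (correlations 0.497, 0.118 and 0.142), but no label ties the numbers to an animal or day. The main fit and the share tests did not pair libraries. Blocking on the numbers, as an alternative, changed no member's call in NMN against young oocytes. Promoters came from RefSeq (37 of 45 members matched) and exons from GENCODE M21, both on GRCm38.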

Additional observations from a re-analysis of the deposited data

How the results depend on the processing

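For aged against young oocytes, the 2 member calls stayed 2 with at least 10 FPKM in 3 libraries, with FPKM as deposited and with median-of-ratios scaling. They became 1 with a pseudocount of 0.1, 1 with only the aged and young libraries in the fit, 0 without a filter, 5 with limma quality weights and 0 with the replicate number as a block, and 0 to 1 when a library was left out. The pairing of replicate numbers is not shown by the data for this contrast (correlations -0.339, -0.266 and 0.314) nor for NMN against aged (-0.372, -0.359 and 0.199). No member was called in NMN against aged oocytes under any alternative; in NMN against young the count was 0, and 0 to 1 with a library left out.

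Over all genes, 199 calls in aged against young oocytes became 31 without a filter, 97 with the 10 FPKM minimum, 918 with quality weights and 78 with the block, and ran from 22 to 210 with a library left out. The table counts without a library left out ran over these alternatives at 4 to 162 in NMN against aged oocytes (main value 20; 5 to 26 with a library left out) and 0 to 72 in NMN against young oocytes (main value 7; 1 to 14 with a library left out). Cdca5 had an adjusted p of 0.132 without a filter, 0.0853 with only the aged and young libraries in the fit and 0.0909 with the block; Hormad1 had 0.0519 with the pseudocount of 0.1, 0.155 without a filter and 0.0768 with the block. With quality weights Ncaph (0.0079), Sycp1 (0.0478) and Sycp3 (0.0225) were called as well. Of 1793 alternative values for single members, 87 had another sign than the main one, none of them a called value. A log2 change of 1 was found in 40 to 46% of simulated cases, none of them a gene of low level. This limits what these libraries can show of smaller differences.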
